A study of Elaeis guineensis with 6 samples.

Results

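The 100 genes with the highest mean FPKM (fragments per kilobase of gene, scaled to the fragments mapped in the library) were described in the inflorescence of oil palm (Elaeis guineensis). The mean was taken over all 6 libraries of the study and over identifiers that stand on 1 record of the gene table. KNOX1, DRM, ADPRF, HCS and IAA1 were left out by the rule, which left 31648 of the 32099 records to choose from. The genes were chosen by these measured FPKM values, so the levels and shares of these genes are given as a description without a test. RNA came from primordial inflorescences at leaf axils -27, -20 and +5 of 1 untreated oil palm (control) and of 1 oil palm from which all leaves but the unopened centre one had been pruned (stress), both felled 45 days after the treatment. Each treatment and leaf axil had 1 library, the treatment is thus 1 tree against 1 tree, and treatment and tree cannot be told apart. No library had a replicate, so a difference between 2 libraries has no replicate check.

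In plants the most abundant messengers commonly encode the machinery of protein synthesis, the cytoskeleton and small stress or cell wall proteins, and a small number of genes can take a large share of all transcripts. FPKM relates fragments to gene length, so levels of different genes can be compared, and the FPKM of a gene divided by the sum over all genes is its share of the transcripts in a library. A larger share for some genes leaves a smaller share for the rest. In a mixed tissue such as an inflorescence, a lower level can come from fewer cells of a type or from less RNA per cell, and the 2 cannot be told apart here.

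The gene table named 1 of the 100 genes, TCTP, and a RefSeq gene table of the newer assembly EG11 gave names to 6 more. These were LOC105045817 (EF1-a1, elongation factor 1 alpha), LOC105057687 (EF1B, which names a partner of elongation factor 1), LOC105038005 (ACT1, actin), LOC105058161 (GRP), LOC105050890 (CHAC1) and LOC105061558 (ARP). The last 3 names are abbreviations that the sources used here do not spell out, and the other 93 genes are known by number only. The sums of FPKM lay between 238672 (stress +5) and 268805 (control +5), and relative to control -27 the depth read from low values lay between 0.949 (control +5) and 1.19 (stress -27). Of 15 inflorescence markers 7 were in the table, and 2 of them, SQUA1 and KNOX1, both regulators of inflorescence or meristem identity, reached an FPKM of at least 1 in all 6 libraries. GLO2 was below 1 in stress -20 and AG2 was listed at 0 throughout. DEF1 (0.16 in control -27), AGL2-3 (0.15 in control +5) and AGL6-1 (2.21 in control +5) were at 0 in every other library. Of 5 leaf markers 2 were in the table, the chloroplast genes psbA and rbcL, and their summed FPKM reached at most 1.2. The sources used here do not state whether the libraries capture chloroplast transcripts, so these values do not show that leaf tissue was absent.

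The 100 genes held 16.7%, 17.5% and 13.6% of the FPKM sum in the control tree at leaf axils -27, -20 and +5. In the defoliated tree they held 19.1%, 19.96% and 16.3% in the same order. The share was thus higher in the defoliated tree at each leaf axil, by 2.37, 2.41 and 2.68 percentage points, and in both trees the +5 library had the lowest share. Against the mean of -27 and -20 its difference was -3.50 points in the control tree and -3.22 points in the defoliated tree. The early libraries make up 4 of the 6 that entered the mean, which favours genes high at -27 and -20. With the 100 highest genes of each library taken for itself, the shares were 17.0%, 17.8% and 15.7% in the control tree and 19.4%, 20.3% and 17.0% in the defoliated tree. The +5 library was again lowest in each tree, and the differences between the treatments were 2.45, 2.47 and 1.26 points.

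**Figure D1:**
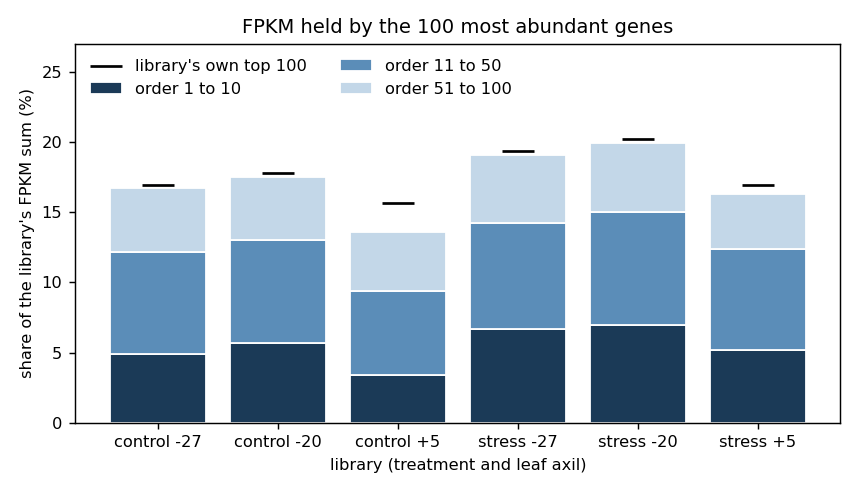
Share of each library's FPKM sum (%, y axis) held by the 100 most abundant genes in the 6 libraries (x axis), split by their order of mean FPKM. The black mark is the share of the library's own 100 highest genes (15.7% in control +5, against 13.6% for the bar).

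The difference between treatments in share stood mostly with the first 10 genes. They held 4.87%, 5.69% and 3.43% in the control tree and 6.70%, 7.001% and 5.17% in the defoliated tree, which is 1.83, 1.31 and 1.74 points more. The genes of order 51 to 100 held 4.56%, 4.52% and 4.26% in the control tree and 4.87%, 4.90% and 3.95% in the defoliated tree, so their difference had the opposite sign at +5. For the next 100 genes the difference was negative at each leaf axil (-0.11, -0.32 and -1.37 points). Averaged over the leaf axils, 64 of the 100 genes had a larger share under stress and 36 a smaller one. LOC105053346, LOC105056944, LOC105044409, LOC105058161 (GRP) and LOC105035217 gained most and together made up 1.58 of the 2.49 points. These 5 genes were picked after their values were seen. TCTP lost most (-0.16 points), followed by LOC105045204 (-0.15 points).

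The highest mean FPKM was that of LOC105056944. Its FPKM was 1853, 2332 and 1130 in the control tree and 2279, 2811 and 2760 in the defoliated tree at -27, -20 and +5. Control +5 was the lowest library, and the ratio of stress to control was 1.23 at -27, 1.21 at -20 and 2.44 at +5. LOC105044409 had 1360, 1798 and 1528 in the control tree and 3496, 2420 and 1362 in the defoliated tree. Its stress -27 value was the highest of any of the 100 genes in any library, and at +5 the stress value lay below the control value. LOC105045204 had 2167, 2373 and 1057 in the control tree and 1513, 1835 and 927 in the defoliated tree. It was the highest gene in control -27 and control -20, it was lower at +5 in both trees, and the treatments overlapped.

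LOC105058161, listed as GRP, had 1165, 1224 and 1237 in the control tree and 1752, 2031 and 2053 in the defoliated tree. The 3 stress libraries were above the 3 control libraries, with ratios of 1.503, 1.66 and 1.66 at -27, -20 and +5. LOC105053346 had 762, 842 and 623 in the control tree and 1569, 1748 and 1584 in the defoliated tree, again without overlap. Its level differed little between leaf axils of a tree and was 2.06, 2.08 and 2.54 times as high in the defoliated tree (log2 difference 1.15 ± 0.39 SE, limma adjusted p = 0.148), which did not pass the test. LOC105050890 (CHAC1) had 1462, 1684 and 1241 in the control tree and 1559, 1655 and 1253 in the defoliated tree, so that its highest value was 1.36 times its lowest.

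The other 4 of the first 10 genes were high at the early leaf axils. LOC105048608 had 1208, 1404 and 932 in the control tree and 1657, 1435 and 552 in the defoliated tree. LOC105058405 had 931, 1060 and 277 in the control tree and 1260, 1440 and 642 in the defoliated tree, so that control +5 was lowest by a wide gap. LOC105053974 had 793, 934 and 644 in the control tree and 1232, 1311 and 583 in the defoliated tree, while LOC105037980 had 788, 1103 and 559.8 in the control tree and 1035, 1088 and 622 in the defoliated tree. In all 4 genes the +5 library was the lowest of its tree.

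**Figure D2:**
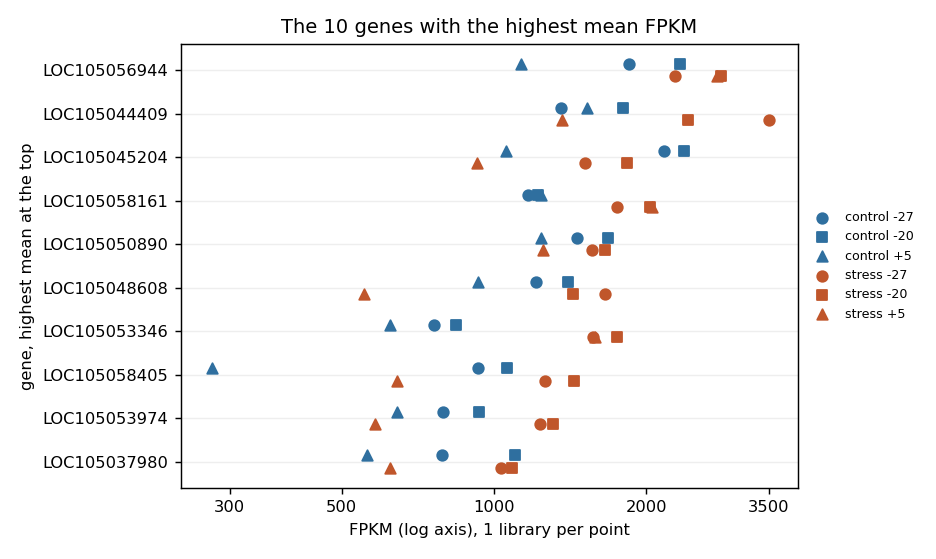
FPKM (log axis) of the 10 genes with the highest mean FPKM, 1 point per library, with the treatments in 2 colours and the leaf axils as 3 marker shapes. LOC105058161 and LOC105053346 have all stress points to the right of all control points, and LOC105058405 has its control +5 point at 277.

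Among the genes with known products, TCTP encodes the translationally controlled tumour protein, a conserved protein tied to cell growth. Its FPKM was 1175, 1016 and 430.4 in the control tree and 521, 563 and 256 in the defoliated tree. In each tree the +5 value was the lowest, and at each leaf axil the stress value was below the control value, but control +5 lay below the early stress libraries. Leaf axil +5 differed from -27 and -20 by -1.21 on the log2(FPKM + 1) scale (standard error 0.22, adjusted p = 0.0256 from limma), short of the threshold of 0.01 used here. Elongation factor 1 brings aminoacyl-tRNA to the ribosome. LOC105045817 (EF1-a1) had 597, 639.9 and 581 in the control tree and 671, 633 and 386 in the defoliated tree, within a narrow range except for stress +5. LOC105057687 (EF1B) had 753, 589 and 516 in the control tree and 439, 593 and 331 in the defoliated tree, with overlap between the treatments.

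Actin builds the microfilaments of the cell. LOC105038005 (ACT1) had 245, 273 and 120.4 in the control tree and 357, 499.7 and 320.1 in the defoliated tree. The defoliated tree was higher at each leaf axil without overlap, and the log2 fold change was 0.94 (standard error 0.37, adjusted p = 0.199 from limma), which did not pass the test. LOC105061558 (ARP) had 133, 198 and 140.5 in the control tree and 388, 456 and 460.1 in the defoliated tree, the stress libraries being 2.92, 2.30 and 3.27 times as high. Its treatments did not overlap.

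Ranks were taken in each library over the 31648 genes. Of the 100 genes 45 were within the first 100 of all 6 libraries, 82 within the first 200 of all 6 and 5 within the first 10 of all 6. Those 5 were LOC105056944, LOC105044409, LOC105045204, LOC105058161 and LOC105050890. In the control tree 87 of the 100 were within the first 100 at -27, 87 at -20 and 63 at +5, and in the defoliated tree 91, 90 and 79. Across libraries, 175 genes were within the first 100 at least once, 75 of them outside the chosen 100. When the 100 genes were chosen over 5 libraries and ranked in the library not used, 84, 84 and 59 were within its first 100 in the control and 88, 87 and 75 in the defoliated tree. The control +5 library thus shared fewest of its most abundant genes with the others, also where it had no part in the choice.

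Between leaf axils -27 and -20 of a tree ranks moved little. The median change was 7 places in the control and 5.5 in the defoliated tree, and no gene of the 100 was 2-fold apart in either (0.897% of all tested genes in each tree, 0.502% higher and 0.395% lower at -20 in the control and 0.481% and 0.416% in the defoliated tree). Between the treatments the median change was 17 places at -27, 10 at -20 and 38 at +5. Between +5 and -20 it was 38 places in the control tree and 16 in the defoliated tree. Among the 100 genes, 55 of the 87 within the first 100 in control -20 were still there in control +5, and 74 of the 90 in stress -20 were there in stress +5. At +5 the trees shared 54 of the 100 genes within the first 100, against 79 at -27 and 82 at -20.

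**Figure D3:**
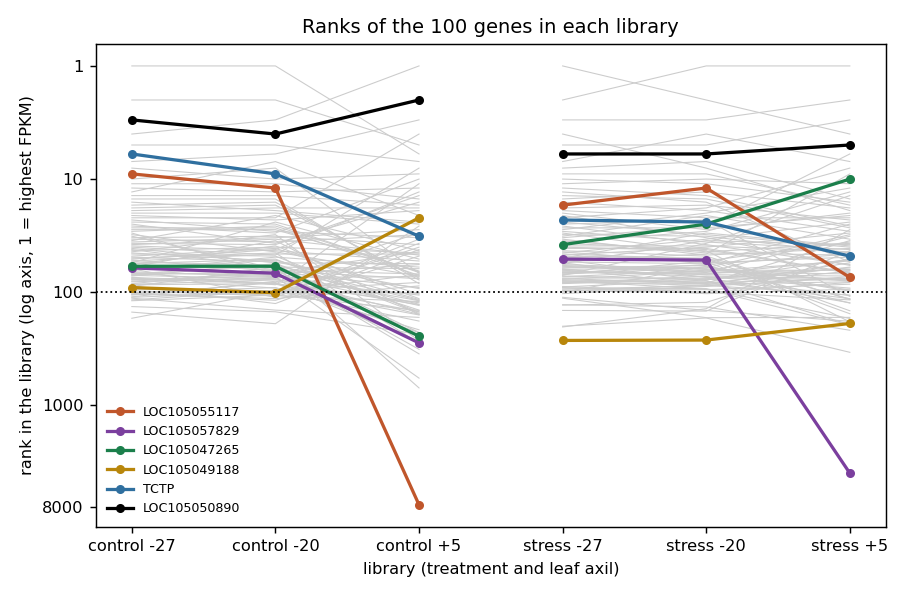
Rank of each of the 100 genes (log axis, 1 is the highest FPKM) in the 6 libraries, with lines joining the leaf axils of a tree and a dotted line at rank 100. Grey lines cross most between -20 and +5, and LOC105055117 reaches rank 7582 in control +5 and LOC105057829 rank 3983 in stress +5.

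The largest gains in rank under stress, by the mean of log2 rank, were those of LOC105047265, LOC105061558, LOC105055117, LOC105053346 and LOC105051512. LOC105047265 had ranks 59, 59 and 245 in the control tree and 38, 25 and 10 in the defoliated tree, with an FPKM of 264, 269 and 114 against 403, 559.8 and 742. Its order over the leaf axils differed between the trees, +5 being lowest in the control and highest under stress. LOC105051512 had ranks 49, 54 and 93 against 28, 20 and 12, and LOC105061558 (ARP) had ranks 170, 98 and 180 against 45, 34 and 24. LOC105055117 stands in this list through 1 library only, as its ranks were 9, 12 and 7582 in the control tree and 17, 12 and 74 in the defoliated tree.

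The largest losses in rank were those of LOC105049188, LOC105046142, LOC105044935, LOC105045204 and LOC105041622. LOC105049188 had ranks 91 at -27 and 22 at +5 in the control tree and was just outside the first 100 at -20, against ranks 267, 265 and 189 in the defoliated tree, with an FPKM of 207, 193 and 532 against 100.5, 95.9 and 106. LOC105046142 had an FPKM of 228, 247 and 368 against 119, 128 and 73.0, and LOC105041622 had 557, 530.1 and 516 against 395, 338 and 147. In these 3 genes all control libraries were above all stress libraries. LOC105044935 had 289.8, 334 and 650.4 in the control tree and 142, 141 and 302 in the defoliated tree. It was 2-fold lower under stress at each leaf axil and about 2-fold higher at +5 in each tree.

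Control and stress were compared with limma on log2(FPKM + 1) over the 18728 genes that reached an FPKM of 1 in 3 or more libraries, and they included all 100. The question was whether defoliation went with another level of these genes over the 3 leaf axils. At an adjusted p under 0.01 and at least a 2-fold change, 0 of the 100 genes passed, against 0.529% of all tested genes (0.15% higher and 0.379% lower under stress). At an unadjusted p under 0.05 there were 18 (22.4% of all tested genes), 10 higher (8.71%) and 8 lower (13.7%) under stress. LOC105061558 (ARP) was the only one with an adjusted p under 0.05 (log2 difference 1.48 ± 0.25 SE, limma adjusted p = 0.0308, 3.47% of all tested genes, 1.35% higher and 2.11% lower). It was higher at 3 of 3 leaf axils. With 1 library left out its adjusted p from limma lay between 0.0367 and 0.160, and it was under 0.05 in 1 of these 6 fits. The gene is among the 100 through its stress values: over the control libraries alone its mean FPKM was 157 and its place 141, so this test is drawn from values that chose the gene and gives no independent support. When leaf axil entered as the block, LOC105044935 was added at that level (log2 difference -1.12 ± 0.20 SE, limma adjusted p = 0.0417, 4.83% of all tested genes).

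In 16 of the 100 genes the 3 stress libraries were all above the 3 control libraries, and in 10 all below, while 12.3% and 18.2% of all tested genes did so. Among the next 900 genes by mean FPKM the shares were 13.7% and 23.2%. The non-overlapping genes included GRP, LOC105053346 and actin on the higher side and LOC105041622, LOC105049188 and LOC105046142 on the lower side. In 30 of the 100 genes the level was higher under stress at all 3 leaf axils (20.8% of all tested genes), in 21 lower at all 3 (30.3%), and in 23 higher at -27 and -20 but lower at +5 (11.5%).

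The median of the 100 log2 differences of stress against control was 0.18 at -27, 0.15 at -20 and -0.15 at +5. Over all tested genes the medians were -0.03, -0.06 and -0.11. After centring each library on its median the values for the 100 genes were 0.23, 0.24 and -0.01, after scaling to equal FPKM sums 0.17, 0.18 and 0.02, and after quantile normalization 0.07, 0.03 and 0.13, so the sign at +5 depends on the scaling. The larger share at +5 under stress therefore stood beside a median difference near 0, with 19 of the 100 genes at least 2-fold higher (5.92% of all tested genes) and 15 at least 2-fold lower (10.3%). At -27 the counts were 4 higher (2.65%) and 3 lower (4.07%), in sum 7 (6.73%), and at -20 they were 5 higher (2.55%) and 3 lower (4.89%), in sum 8 (7.44%). A gene that is very high in 1 library gains a high mean by it, so the choice of the 100 genes itself favours large differences. Of the next 900 genes 8.44% were 2-fold higher and 14.8% were 2-fold lower at +5.

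**Figure D4:**
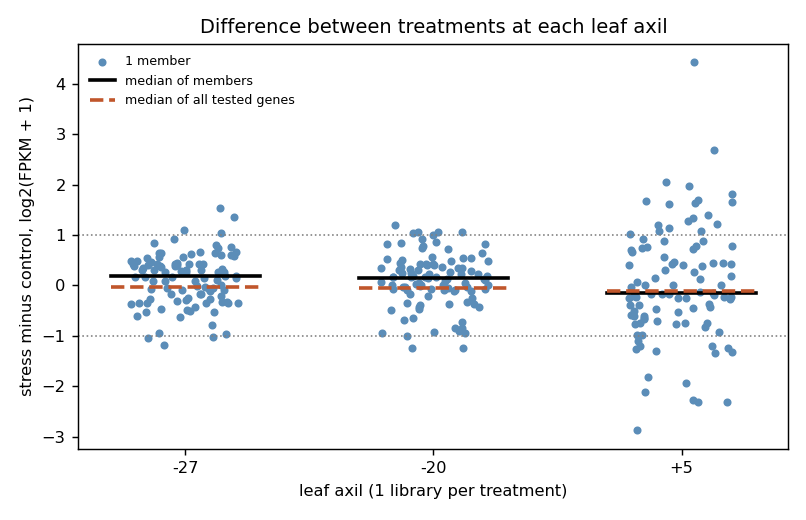
Difference of stress minus control in log2(FPKM + 1) (y axis) for each of the 100 genes at the 3 leaf axils (x axis, 1 library per treatment). Black bars are medians of the 100 genes (0.18, 0.15 and -0.15), dashed bars those of all tested genes, and the points spread widest at +5.

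Leaf axil +5 was then compared with -27 and -20, with the treatment in the model. The question was which abundant genes differ between the oldest inflorescence and the younger ones. Of the 100 genes 3 passed the threshold (1.45% of all tested genes), all lower at +5 (0.699%), and 0 were higher (0.753%). At an adjusted p under 0.05 from limma there were 16 (7.65%), of which 14 were lower (3.65%). The 34 with an unadjusted p under 0.05 and a lower level compare with 11.9% of all tested genes, and the 7 with a higher level with 13.6%. Since 4 of the 6 libraries in the mean are early ones, genes lower at +5 are favoured by the choice.

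LOC105039857 fell from 252 and 241 to 62.7 in the control and from 401 and 378 to 109 under stress, between -27, -20 and +5 (log2 difference -1.89 ± 0.15 SE, limma adjusted p = 0.00299). Its rank moved from 66 and 73 to 575 in the control and from 40 and 43 to 183 under stress. LOC105053778 fell from 304 and 292 to 54.4 and from 382 and 328 to 128 (log2 difference -1.95 ± 0.25 SE, limma adjusted p = 0.00839). LOC105050210 fell from 396 and 262 to 89.8 and from 372 and 322 to 121 (log2 difference -1.67 ± 0.22 SE, limma adjusted p = 0.01, just under the threshold before rounding). In all 3 genes both +5 libraries were below all 4 early libraries. At +5 the 3 genes also lay below the gene at rank 100 (FPKM 208 in control +5 and 164 in stress +5). They are thus among the 100 through their early values. The test is drawn from values that chose these genes and gives no independent support. Leaving out 1 early library left 0 of the 100 genes past the threshold whichever of the 4 it was. Without control +5 there were 11 and without stress +5 there were 21, where the remaining +5 library was assumed to vary like the others. Over all tested genes the fits without an early library called 0 to 5 genes (at most 0.0267%), that without control +5 called 2.20% and that without stress +5 6.43%. LOC105050210 also missed the threshold without control +5 (limma adjusted p = 0.0141). With an early library left out, the log2 differences lay between -1.92 and -1.87 for LOC105039857, between -2.06 and -1.87 for LOC105053778 and between -1.78 and -1.52 for LOC105050210.

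On the other side LOC105036011 had 230.2, 238 and 447 in the control tree and 118, 148 and 399 in the defoliated tree (log2 difference 1.26 ± 0.21 SE, limma adjusted p = 0.0203). LOC105044935 had the values given above (log2 difference 1.08 ± 0.17 SE, limma adjusted p = 0.0168). These 2 were the only ones of the 100 higher at +5 with an adjusted p under 0.05, against 3.99% of all tested genes. Their early stress values lay below the gene at rank 100 (FPKM 183 in stress -27 and 184 in stress -20). The high +5 values entered the mean that chose these genes, so the test gives no independent support. LOC109506053 and LOC105034654 gained rank at +5 in both trees, with an FPKM of 468, 384 and 641 and of 467, 441 and 748 in the control, and of 338, 355 and 859.8 and of 329.5, 314 and 459 under stress. Within the control tree 18 of the 100 genes were at least 2-fold lower at +5 (4.41% of all tested genes) and 7 at least 2-fold higher (6.82%). Within the defoliated tree 18 were lower (3.01%) and 4 higher (3.81%). In 52 of the 100 genes +5 was lower in both trees (27.1%), in 10 higher in both (31.9%) and in 38 the trees differed in direction (40.9%). Of the next 900 genes 43.6% were lower in both trees and 15.9% higher in both, closer to the 100 genes than all tested genes were.

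**Figure D5:**
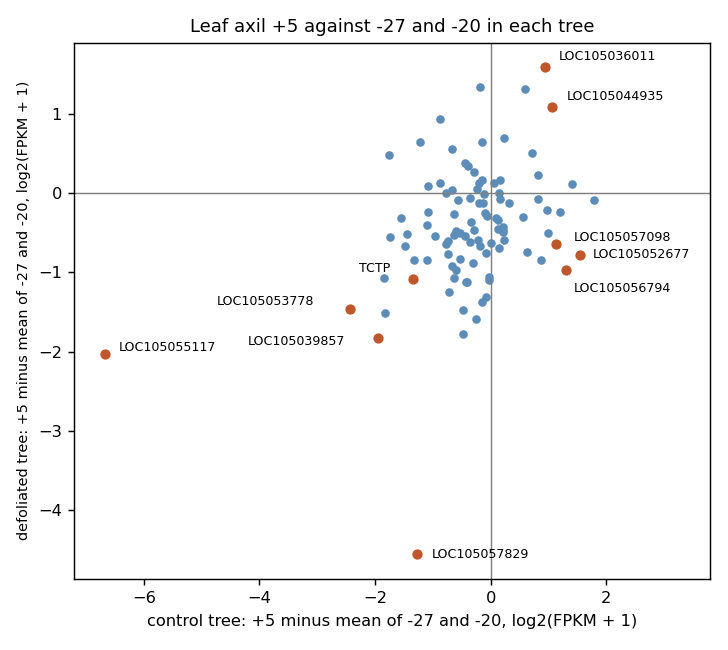
Difference of leaf axil +5 minus the mean of -27 and -20 in log2(FPKM + 1), control tree on the x axis and defoliated tree on the y axis, 1 point per gene, with named genes in red. LOC105055117 and LOC105057829 stand far from the rest along 1 axis each, and LOC105052677, LOC105056794 and LOC105057098 lie on opposite sides of 0 in the trees.

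The treatment effect at +5 was tested against that at -27 and -20. Of the 100 genes 5 passed the threshold, 1 of them with an effect further up at +5 (0.208%) and 4 further down (0.283%), against 0.491% of all tested genes. At an adjusted p under 0.05 from limma there were 18 (4.95%), and at an unadjusted p under 0.05 there were 49 (24.3%), 21 further up (10.4%) and 28 further down (13.8%). With 1 library of each treatment at +5, the spread behind this test comes only from -27 and -20, so its p-values do not measure variation between inflorescences at +5 and the values describe these 2 libraries. The choice by mean level favours genes that are very high in 1 library, as said above, and how far this raised the count was not tested.

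LOC105055117 had an FPKM of 949.7, 929 and 8.17 in the control tree and 619.6, 1045 and 196 in the defoliated tree. The control +5 value was the lowest of the 100 genes in any library, the level was 115 times lower there than at the early leaf axils and 4.25 times lower in stress +5, and the difference of the effects was 4.65 (standard error 0.41, adjusted p = 0.00612 from limma). LOC105057829 was the mirror of it, with 260.2, 245 and 104 in the control tree and 348, 325 and 13.4 in the defoliated tree. It was 25.2 times lower at +5 in the defoliated tree and 2.42 times lower in the control tree, and the difference was -3.29 (standard error 0.20, adjusted p = 0.00257 from limma).

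The other 3 genes were high in control +5 and low in stress +5. LOC105052677 had 249, 216 and 677 in the control tree and 244, 237 and 140.0 in the defoliated tree (difference of effects -2.32 ± 0.23 SE, limma adjusted p = 0.00804). LOC105056794 had 329, 313 and 797 in the control tree and 417, 402 and 209 in the defoliated tree (difference of effects -2.28 ± 0.23 SE, limma adjusted p = 0.00804). LOC105057098 had 197, 188 and 423 in the control tree and 154, 149.9 and 96.8 in the defoliated tree (difference of effects -1.77 ± 0.20 SE, limma adjusted p = 0.00959). In each of them control +5 was above all other libraries and stress +5 below all others. LOC105057098 is among the 100 only through control +5, since over the other 5 libraries its mean FPKM was 157 and its place 119. The value that chose it is thus the one that gives its difference. With 1 early library left out, 0 to 2 of the 100 genes passed and 0 to 10 of all tested genes (at most 0.0534%), and LOC105055117 and LOC105057829 were the only ones of the 5 that passed in any of these fits. The differences themselves then lay between 4.27 and 5.02 for LOC105055117, between -3.34 and -3.24 for LOC105057829, between -2.42 and -2.22 for LOC105052677, between -2.32 and -2.24 for LOC105056794 and between -1.81 and -1.74 for LOC105057098. Without a variance trend 0 of the 5 passed (limma adjusted p from 0.0219 to 0.0328). Without a +5 library the difference could not be fitted.

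Over the 6 libraries the highest value of a gene was 2.38 times its lowest in the median of the 100 genes. It was 1.95 times for the next 900 genes and 2.03 times for tested genes on 1 record with no library at 0. Of the 100 genes 34 stayed within 2-fold, against 52.9% of the next 900 and 48.3% of tested genes on 1 record. Within 1.5-fold were 12, for which no share of other genes was computed. The choice by mean level favours large differences, as said above. The steadiest 5 were LOC105049442, LOC105059616, LOC105044023, LOC105032060 and LOC105050890 (CHAC1). LOC105049442 had 204, 188 and 182 in the control tree and 188, 184 and 184 in the defoliated tree, and LOC105059616 had 384, 395 and 437 against 381, 408 and 374. LOC105044023 ranged from 222 to 287 and LOC105032060 from 179 to 235. LOC105049442 was also the gene of order 100, with a mean FPKM of 188 against 186 for the next gene, LOC105059288. The widest ranges were those of LOC105055117 (128-fold), LOC105057829 (26.1-fold), LOC105053778 (7.03-fold), LOC105047265 (6.51-fold) and LOC105039857 (6.40-fold).

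The highest value of the gene was found in control +5 for 22 of the 100 genes and the lowest there for 40, while stress +5 held the highest for 15 and the lowest for 41. Among all tested genes control +5 was the highest library for 31.3% and the lowest for 20.4%, and stress +5 for 19.9% and 24.3%. The 2 libraries of +5 carried the lowest value of 81 of the 100 genes, against 44.6% of all tested genes and 68.9% of the next 900, and the choice by mean level over mostly early libraries favours this. The same 2 libraries carried the highest value of 37 of the 100 genes, against 51.3% of all tested genes and 44.3% of the next 900.

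Of the 97 of the 100 genes that the EG11 gene table places on a chromosome, 2 pairs lay next to each other with no gene between, and another pair had 2 genes between. All 3 pairs were picked after their positions and values were seen. LOC105056795, next to LOC105056794, had 143, 123 and 462 in the control tree and 259.6, 235 and 232 in the defoliated tree. LOC105059363 had 255, 184 and 398 against 291, 308 and 166, and its neighbour LOC105059364 had 210.1, 169.9 and 377 against 233, 215 and 158. LOC105049189, 2 genes from LOC105049188, had 526, 513 and 1190 against 568, 651 and 515. In all 6 genes control +5 was the highest library. Whether near copies share reads within these pairs was not tested, so their levels are uncertain.

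Of the 5 genes left out by the rule, KNOX1 (mean FPKM 752), ADPRF (222) and DRM (214) lay above the gene of order 100, and HCS and IAA1 below it. Identifiers on more than 1 record reached a mean FPKM of at most 6.48, so leaving them out removed no gene of this level.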

How the data were processed

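The authors sequenced paired-end libraries and aligned untrimmed reads with HISAT2 2.1.0 to the oil palm genome. They quantified genes with StringTie 1.3.4 and deposited FPKM values, with no further scaling named in the sources used here. Per the labels the 6 libraries are 3 control and 3 stress samples at 3 leaf axils. Of 32099 records, 446 share 68 identifiers and were not eligible. From the deposited FPKM, means, ranks and shares of the library sum were computed with Python 3.11.15, numpy 2.4.6 and pandas 2.3.3. Tests used log2(FPKM + 1) with limma 3.58.1 in R 4.3.3 (lmFit, eBayes with trend) over the 18728 genes that reached an FPKM of 1 in 3 or more libraries, with Benjamini-Hochberg adjustment over all of them. A gene passed with an adjusted p below 0.01 and a log2 difference of 1 or more in either direction. FPKM is no count, so no count model was run. A fold change on this scale understates the change of low genes. Read totals were not computed, and relative depth was read from the ratio of FPKM between libraries in genes below an FPKM of 1 in every library.

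For each leaf axil, the deviations of its control and stress library from their treatment means had a correlation over genes of 0.211 (-27), 0.344 (-20) and 0.409 (+5). The pairing by leaf axil comes from the labels, and an alternative test had the leaf axil as block. P-values between treatments measure only the spread between leaf axils of a tree. With leaf axil as the block they measure how far the treatment difference varied between leaf axils. For +5 against -27 and -20 the spread is that between -27 and -20, and that of the treatment difference between +5 and these. No p-value here measures variation between trees. The tests were tested on simulated data. Of the 100 symbols 98 were found in the RefSeq genes of assembly EG11, which is newer than the authors' genome and served for names and neighbours only, and sequences were not used here. Genes were named by fixed rules: the first 10 by mean, those past a threshold, the 5 largest rank moves each way between treatments and leaf axils, the 5 narrowest and 5 widest ranges, and those with a name. The 100 genes, lists and rules were chosen with earlier results of these data known. Alternatives were quantile normalization, centring on medians, a pseudocount of 0.1, no filter, a filter on mean FPKM (5), equal FPKM sums, no variance trend, other thresholds, other ways to choose the genes and leaving out each library.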

Additional observations from a re-analysis of the deposited data

Results flagged for a closer look

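In 5 of the 100 genes, against 0.491% of all tested genes, the treatment difference at leaf axil +5 and that at -27 and -20 were apart. This came from a test of the difference (limma, adjusted p between 0.00257 and 0.00959). Each treatment had 1 library at +5, so these p-values do not measure variation at +5, and 0 of the 5 passed without a variance trend. On the log2 scale the difference was 4.65 for LOC105055117, -3.29 for LOC105057829, -2.32 for LOC105052677, -2.28 for LOC105056794 and -1.77 for LOC105057098. For LOC105055117 the value rests on control +5 (8.17 FPKM) and for LOC105057829 on stress +5 (13.4 FPKM). For the other 3 genes control +5 was the highest and stress +5 the lowest of the 6 libraries. LOC105057098 is among the 100 only through control +5 (place 119 without it), the value that gives its difference.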

How the results depend on the processing

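Between the treatments 18 of the 100 genes had an unadjusted p under 0.05 from limma (22.4% of all tested genes). At an adjusted p under 0.05 and at least a 2-fold change 1 passed (2.48%). In every alternative that kept an adjusted p under 0.01, 0 of the 100 genes passed. The replicate block by leaf axil also gave 0 (0.171% of all tested genes). All these fits called at most 0.577% of all tested genes. Without control -27, control -20 or stress -20 they called 0 of all tested genes, and without stress -27 they called 1. A 0 among the 100 genes could hardly come out otherwise there, so it is no result about these genes. Leaf axil +5 against -27 and -20 gave 3 genes. It gave 0 without a filter, 1 after quantile normalization, 1 after scaling to equal FPKM sums, 2 without a variance trend, 2 with a pseudocount of 0.1, 0 without the treatment in the model and 11 at an adjusted p under 0.05, and from 0 to 21 with 1 library left out. Of all tested genes the leaf axil test called 1.45% in the main fit and 0.00312% without a filter. Quantile normalization gave 1.35%, equal FPKM sums 1.54%, no variance trend 1.16% and a pseudocount of 0.1 gave 1.21%. Without the treatment in the model it was 0.016%, and at an adjusted p under 0.05 and at least a 2-fold change 4.32%. Where 1 or 2 of the 100 genes passed, this was near the share of all tested genes. The difference of the treatment effect gave 5 genes (0.491% of all tested genes). Quantile normalization gave 6 (0.502%) and the filter on mean FPKM 6 (0.948%). A pseudocount of 0.1 gave 4 (0.331%) and equal FPKM sums 4 (0.454%). It gave 0 without a filter (0.368%), 2 after centring on medians (0.166%) and 0 without a variance trend (0%). At an adjusted p under 0.05 and at least a 2-fold change there were 18 (4.69%). Fewer than 5 passed with 1 early library left out, as given above. No sign reversed under any alternative run in the 9 genes that passed a threshold (LOC105061558 only at a limma adjusted p under 0.05). The filters, the variance trend, the block and the treatment in the model leave the log2 difference unchanged, so the sign could not reverse there. These 9 genes were picked for passing, so their kept signs give no independent support. Equal FPKM sums were added after the data were seen. Over all tested genes 99 passed between the treatments (32 with the block, 7 without a filter), 272 between leaf axils (1 without a filter, 3 without the treatment) and 92 for the difference (118 without a filter, 31 after centring, 0 without a variance trend). The causes were not tested.

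The 50 most abundant genes held 12.2%, 13.0% and 9.38% in the control tree and 14.2%, 15.1% and 12.4% in the defoliated tree, and the 200 most abundant held 22.2%, 23.2% and 19.8% and 24.5%, 25.3% and 21.1%. Chosen over the other 5 libraries, the genes held from 13.2% to 19.8% of the library not used. Other ways to choose the 100 genes shared 96 to 100 of them and kept 45 within the first 100 of all 6 libraries, against 70 within the first 150. Weighting +5 and the early leaf axils equally was added after the data were seen and shared 96.

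Genes at least 2-fold higher under stress numbered 1 at -27 and 2 at -20 after quantile normalization, and 1 was lower at -27 after centring. No share of all tested genes was computed under these scalings. Whether the lower counts are particular to the most abundant genes can thus not be told. At 1.5-fold 18, 15 and 29 were higher and 8, 12 and 30 lower at -27, -20 and +5, against 8.63%, 8.93% and 14.2% higher and 12.2%, 14.4% and 22.8% lower among all tested genes.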
